A study of Mus musculus with 6 samples.

Results

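The 4 genes described here are the mouse counterparts of the genes that form Ewing sarcoma fusions, Fli1, Erg and Ewsr1, and a neighbour and relative of Fli1, Ets1. Their peaks are those of all 5 deposited lists that lie within 50 kb of 3 spans in the mouse genome build mm9: Fli1 and Ets1 together (chr9:32229000-32566000), Erg (chr16:95580000-95809000) and Ewsr1 (chr11:4969000-5000000). They number 56 of 76477 peaks: 25 at Fli1 and Ets1, 15 at Erg and 16 at Ewsr1. The question was whether the host's own Fli1, Ets1 and Erg are acetylated or methylated in cells that carry the fusion. The peaks were found by chromatin immunoprecipitation and sequencing (ChIP-seq) in ES48 and ES49, untreated Ewing sarcoma lines induced by EWS-FLI1 on a Balb/c mouse background. EWS-FLI1, pulled down with a FLAG antibody that sees the tagged fusion and not the host's Fli1, and histone H3 acetylated at lysine 27 (H3K27ac) were mapped in both lines. Histone H3 trimethylated at the same residue (H3K27me3) was mapped in ES49. Each of the 6 samples, the ES49 input included, is a group of 1, so no difference below has a replicate check and no p-value is given. The lines were not checked here against marker genes, and the lists have no read counts, so the depth is unknown.

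ETS proteins are transcription factors that bind DNA at a GGAA core through a shared domain. Fli1 and Erg are near relatives that act in blood and in the lining of vessels, and Ets1 is best known in lymphocytes and endothelium. Ewsr1 encodes an RNA-binding protein made in nearly all cells. In Ewing sarcoma a translocation joins the first part of EWSR1 to the DNA-binding part of FLI1, and in some tumours to that of ERG. H3K27ac marks active promoters and enhancers, whereas H3K27me3 is laid down by Polycomb repressive complex, often over CpG-rich promoters of developmental genes that are off. The same lysine cannot carry both marks.

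The RefSeq promoter table of build GRCm38.p6 held 3 start sites of Erg and 1 of Ewsr1, so 2 of the 4 genes matched. The 250 bases before the start are printed 5′ to 3′ for the outermost Erg start, the next Erg start and Ewsr1, because these genes carry opposite marks below. Capitals mark each CG dinucleotide. The coordinates are of GRCm38 and cannot be set against the mm9 peaks.
Erg outermost start, chr16:95586594-95586843, minus strand: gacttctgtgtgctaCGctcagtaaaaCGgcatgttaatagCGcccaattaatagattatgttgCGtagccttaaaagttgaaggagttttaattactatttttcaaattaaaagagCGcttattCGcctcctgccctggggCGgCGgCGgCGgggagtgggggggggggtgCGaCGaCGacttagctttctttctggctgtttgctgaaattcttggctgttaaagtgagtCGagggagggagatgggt
Erg next start, chr16:95530366-95530615, minus strand: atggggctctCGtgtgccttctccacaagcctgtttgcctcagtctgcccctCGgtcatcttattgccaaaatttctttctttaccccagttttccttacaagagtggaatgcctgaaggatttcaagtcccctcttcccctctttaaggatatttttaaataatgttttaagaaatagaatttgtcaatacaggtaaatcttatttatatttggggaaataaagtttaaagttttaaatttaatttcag
Ewsr1, chr11:5099097-5099346, minus strand: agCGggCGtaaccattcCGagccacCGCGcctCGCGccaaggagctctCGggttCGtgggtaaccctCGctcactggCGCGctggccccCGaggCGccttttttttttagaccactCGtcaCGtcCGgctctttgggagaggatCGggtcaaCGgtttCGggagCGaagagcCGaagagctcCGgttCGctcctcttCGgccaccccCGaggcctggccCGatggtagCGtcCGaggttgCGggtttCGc

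The Ewsr1 promoter held 31 CG dinucleotides, more than 94.8% of the 32851 promoters in the table, whose median was 6. The outermost Erg promoter held 14, more than 70.6% of them. The next Erg start held 2, more than 18.8%, and the last Erg start, not printed, held 3, more than 29.0%. The GGAA core was searched as GGAA and TTCC. It occurred 0 times before the outermost Erg start, 4 times before the next, 2 times before the last and 1 time before Ewsr1. It was found in 93.4% of all promoters, with a median of 3. The doubled core, searched as GGAAGGAA and TTCCTTCC, was in 0 of the 4 promoters of these genes and in 3.12% of all promoters.

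The 4 genes fell into 3 patterns. Fli1 and Erg held H3K27me3 in ES49 and had no H3K27ac peak in either line. Ets1 had H3K27ac peaks in ES48 alone, and in ES49 it had H3K27me3 peaks below the place where ES48 was acetylated, the nearest of them weak. Ewsr1 had an H3K27ac peak across the upper end of its span in both lines, with H3K27me3 only outside the span. EWS-FLI1 had no peak within 50 kb of any of the 4 genes in either line.

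The 5 lists differ in length and in the range of their scores, and scores, the peak caller's own, are compared only within a list. They held 614 and 681 EWS-FLI1 peaks (ES48 and ES49), 25970 and 29652 H3K27ac peaks, and 19560 H3K27me3 peaks. The median H3K27ac score was 547.5 in ES48 and 165.9 in ES49, and the lowest score in each list lies close to 50. Of the 56 peaks at the loci, 7 were H3K27ac of ES48, 4 were H3K27ac of ES49 and 45 were H3K27me3.

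Fli1 had the strongest H3K27me3 peak of these genes. In ES49 a single H3K27me3 peak of 6684 bp lay at chr9:32347462-32354145, 118.5 kb above the lower end of the span. Its score was 3100, the level at which the scores plateau: 13 H3K27me3 peaks scored higher and 228 had this value, itself included. By width it was rank 129 of 19560, against a median width of 500 bp. The next highest H3K27me3 score at the 3 loci was 832.4, at Erg.

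The span of Fli1 and Ets1 was split at its midpoint, with Fli1 on the lower side and Ets1 on the upper side, since no gene model of mm9 was used. The genes are neighbours and are transcribed away from each other, so their 5′ ends face the interval between them. Whether a given peak covers a promoter was not determined. The Fli1 side held 12 H3K27me3 peaks covering 6.16% of its 168.5 kb. The other 11 were weak, with scores from 50.64 to 77.03 and widths from 274 to 388 bp. When H3K27me3 peaks less than 12500 bp apart were joined, the large peak and 4 neighbours formed a domain of 15.0 kb with 8.08 kb covered, rank 444 of 4750 such domains. A further 6 weak peaks made a domain of 18.2 kb from 32309789 to 32327961, with 2.03 kb covered.

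The Fli1 side held 0 H3K27ac peaks in ES48 and 0 in ES49. Around the large H3K27me3 peak the stretch without H3K27ac ran for 1308 kb in ES48 and 3729 kb in ES49. The lower limit was common to the lines, at an H3K27ac peak 1153 kb below. The upper limit was 148.7 kb above in ES48, at Ets1, and 2570 kb above in ES49. The ES48 stretch was longer than 98.7% of the gaps between neighbouring H3K27ac peaks of its list, and the ES49 stretch longer than 99.8%. Each gap counted once in these shares, while a stretch picked for a position it holds is more likely a long one. The shares thus do not tell how much of the genome lies in stretches this long. The median gap was 15.1 kb in ES48 and 9.29 kb in ES49.

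**Figure D1:**
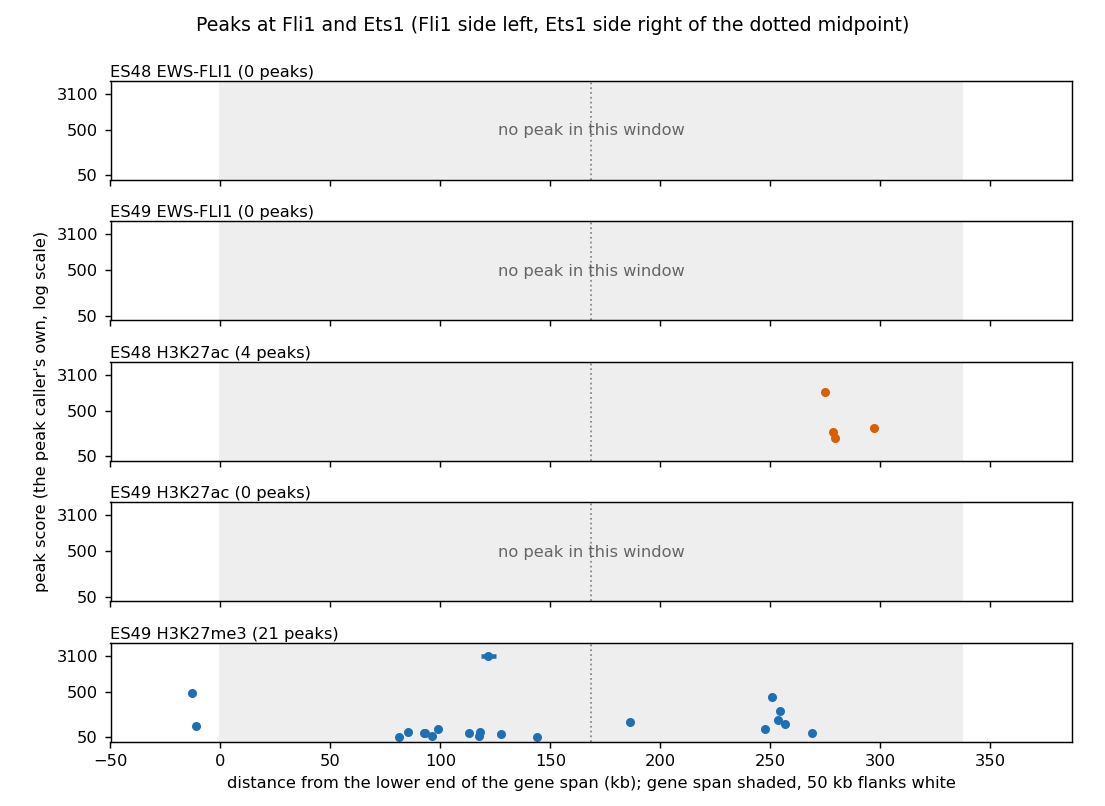
Peaks of the 5 lists at Fli1 and Ets1; the horizontal axis is the distance in kb from the lower end of the shaded gene span, the vertical axis is the caller's score on a log scale, and each line segment with a dot is a peak. The 6684 bp H3K27me3 peak stands at a score of 3100 on the Fli1 side, and the 4 ES48 H3K27ac peaks stand on the Ets1 side, where ES49 has none.

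Ets1 was where the H3K27ac calls of the lines differed. The samples include an input of ES49 and none of ES48, and the median H3K27ac peak width was 1475 bp in ES48 and 838 bp in ES49. Whether the control or the calling bears on the difference was not tested. ES48 had 4 H3K27ac peaks on the Ets1 side of the span, covering 4.68 kb. The highest, chr9:32502824-32504885, was 2062 bp wide with a score of 1265, above 63.9% of the ES48 list. The others were chr9:32507191-32508043 (score 171.4), chr9:32508099-32508850 (score 123.7) and chr9:32525492-32526499 (score 209.7). These 3 scored above 25.4 to 34.7% of the list. The first 3 lay within 6.03 kb, a domain with 3.67 kb covered and rank 3566 of 13750 by covered length, so the locus was not among the largest acetylated domains of ES48.

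ES49 had 0 H3K27ac peaks at Ets1, and its nearest lay 1308 kb from the highest ES48 peak. Thus 0 of the 4 ES48 peaks were shared, where 66.6% of the ES48 list overlapped an ES49 H3K27ac peak. The 95% exact binomial interval, 0 to 60.2%, gives counting error only and treats neighbouring peaks as independent, which they are not. Sharing depends on the score. Of the 977 ES48 peaks within 10% of the score of the highest Ets1 peak, 846 (86.6%) were shared. Of the 2431 with scores in the range of the other 3, 1054 (43.4%) were. These score ranges were set after the values were seen. Among the 8667 ES48 H3K27ac peaks that were not shared, the highest Ets1 peak scored above 95.2% and was wider than 91.5%, against median values of 116.4 for the score and 690 bp for the width. The highest Ets1 peak was thus 1 of 131 peaks of its score range that ES49 lacked, and the weaker 3 lay in a range where most peaks were called in ES48 alone.

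H3K27me3 on the Ets1 side of ES49 had no peak as strong or wide as the 6684 bp peak of the Fli1 side. Apart from that peak, scores ran from 50.64 to 77.03 on the Fli1 side and from 61.04 to 388.0 on the Ets1 side. The Ets1 side had 7 peaks covering 2.93% of it, against 6.16% of the Fli1 side with the large peak included. Of these, 6 lay in a domain of 21.4 kb, from 32476416 to 32497856, with 4.31 kb covered and rank 929 of 4750. Its highest peak was chr9:32479183-32480631, 1449 bp wide with a score of 388.0, above 89.0% of the H3K27me3 list. The peaks chr9:32482903-32483873 (971 bp, score 189.5) and chr9:32482272-32482891 (620 bp, score 121.0) stood next to it. The peak chr9:32414867-32415493 (627 bp, score 106.6) lay apart from this domain, nearer to the midpoint of the span.

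The H3K27me3 peaks of ES49 ended below the acetylated stretch of ES48. The last of them, chr9:32497491-32497856, was weak, with a width of 366 bp and a score of 61.04, and lay 4.97 kb from the first ES48 H3K27ac peak. The next, chr9:32485525-32485915 (score 97.27), was 16.9 kb away, and the highest was 22.2 kb away. No ES48 H3K27ac peak at Ets1 overlapped ES49 H3K27me3, which 1.74% of the whole ES48 H3K27ac list did. Above the methylated stretch ES49 had neither mark for the rest of the window. Its next H3K27me3 peak lay 1728 kb beyond the span. The Ets1 positions acetylated in ES48 thus had no peak of either mark in ES49.

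In the lower flank, 11.8 kb below the span of Fli1, ES49 had another strong H3K27me3 peak at chr9:32215314-32217227, 1914 bp wide with a score of 465.9. A weaker one lay at chr9:32217597-32217998 (score 87.86). The protein-coding gene next to Fli1 on this side is Kcnj1, a potassium channel gene, in the RefSeq order of GRCm38. These peaks were not assigned to a gene.

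Erg resembled Fli1 in its marks and differed in how they were laid out. ES49 had 15 H3K27me3 peaks in the window, 13 of them in the span. The highest, chr16:95806080-95808443, was 2364 bp wide with a score of 832.4, above 93.9% of the list. It ended 0.56 kb from the upper end of the span, and Erg is on the minus strand, so this is the side of its outermost start. The other Erg starts lie further down, and none was placed in mm9. The peaks chr16:95802797-95803449 (653 bp, score 266.5) and chr16:95801896-95802782 (887 bp, score 206.5) lay beside the highest peak.

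Together 8 Erg peaks made a domain of 15.1 kb up to 95809313, with 6.29 kb covered, rank 594 of 4750. Of these 8, chr16:95796399-95796964 (score 110.9) and chr16:95808862-95809313 (score 105.8) were also among the highest, and the latter crossed the upper end of the span. H3K27me3 was called in many pieces at both genes, with 12 peaks on the Fli1 side and 13 in the Erg span. Fli1 differed in having a peak of 6684 bp among them, where the widest at Erg was 2364 bp. The remaining 5 peaks of the span lay far from this end, with scores from 52.52 to 104.4, the highest at chr16:95589008-95589572 (565 bp). Another 2 lay in the lower flank, at scores of 87.34 and 88.72.

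No H3K27ac peak lay in the Erg window in ES48 or in ES49. The stretch without H3K27ac around the highest Erg peak was 976.2 kb in ES48 and 976.6 kb in ES49, longer than 97.9% and 98.2% of the gaps in their lists. As at Fli1, each gap counted once, so these shares do not tell how much of the genome lies in such stretches. The limits of the Erg stretch were nearly the same in the lines, 859.2 and 859.3 kb below and 114.7 and 114.9 kb above. In this Erg differed from the Fli1 and Ets1 locus, where ES48 had a limit that ES49 lacked.

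**Figure D2:**
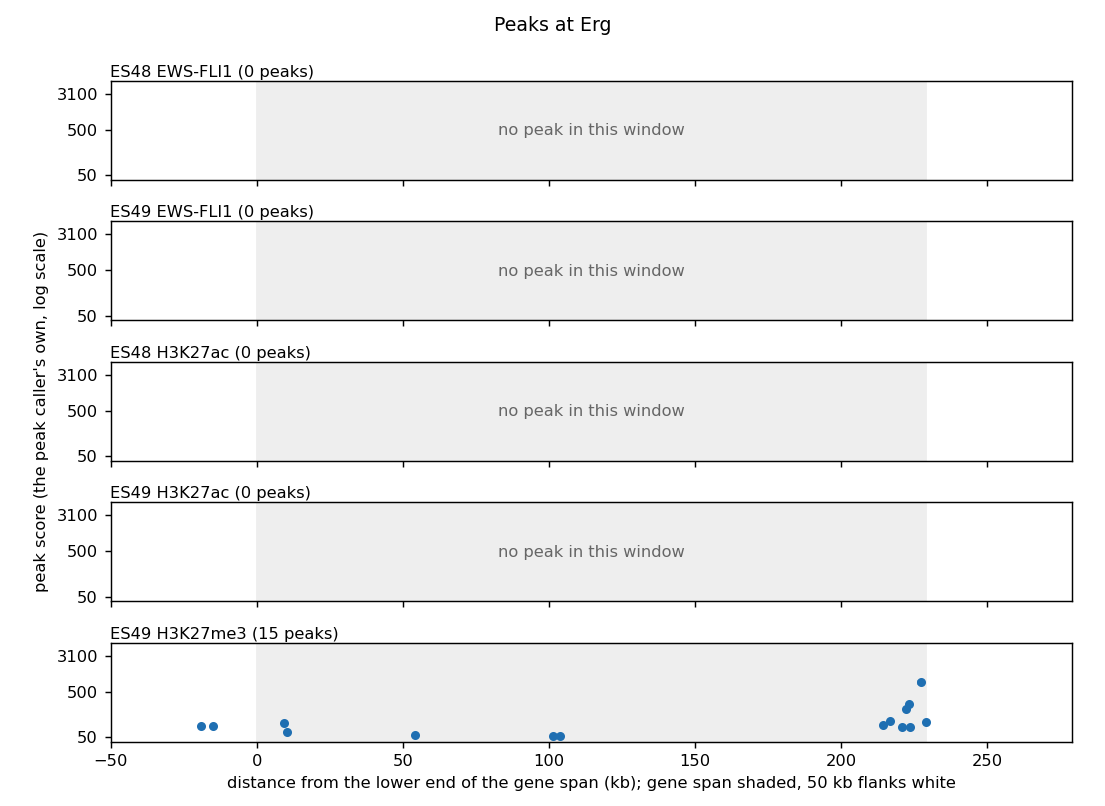
Peaks of the 5 lists at Erg, drawn against the distance in kb from the lower end of the shaded span, with the caller's score on a log scale. All 15 peaks are ES49 H3K27me3, and 8 of them crowd at the upper end of the span, where the highest has a score of 832.4.

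Ewsr1 was the gene of the 4 with H3K27ac peaks in both lines. Its strongest H3K27ac peak was chr11:4997113-5001076 in ES48, 3964 bp wide, and chr11:4997538-5000812 in ES49, 3275 bp wide. Both had a score of 3100, the plateau, which 19.6% of the ES48 list and 6.01% of the ES49 list reached or passed. The width was above 92.3% of the ES48 list and 95.8% of the ES49 list. The ES49 peak lay wholly within the ES48 peak and covered 82.6% of it. Both crossed the upper end of the span, by 1.08 kb in ES48 and 0.81 kb in ES49. Ewsr1 is on the minus strand and begins at this end, and the next protein-coding gene above it is Rhbdd3, so the acetylation cannot be given to Ewsr1 alone.

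Weaker acetylated places lay in the flank below Ewsr1. In ES48 they were chr11:4964397-4966081 (score 1204) and chr11:4961017-4962908 (score 478.2). In ES49 they were chr11:4964623-4966021 (score 681.3), with a small peak at chr11:4964084-4964621 (score 77.52) beside it, and chr11:4961339-4961914 (score 90.52). The neighbours on that side are Rasl10a and Gas2l1. All 3 ES48 peaks and all 4 ES49 peaks of the window were shared, where 66.6% of the ES48 list and 68.6% of the ES49 list were. With so few peaks the exact binomial intervals reach down to 29.2% in ES48 and 39.8% in ES49, and include the shares of the lists. These intervals treat peaks as independent, which neighbouring peaks are not. For instance, the ES48 peak chr11:4964397-4966081 met 2 of the 4 ES49 peaks.

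H3K27me3 was absent from the Ewsr1 span in ES49, and 9 peaks lay in its flanks. The upper flank held 8, from chr11:5030454-5030779 (score 54.92) to chr11:5049281-5049896 (score 73.15). Their highest was chr11:5035258-5035849, 592 bp wide with a score of 147.8. Next came chr11:5038759-5039405 (score 103.2), chr11:5039449-5039922 (score 94.49) and chr11:5034702-5035203 (score 82.94). The others were chr11:5035879-5036280 (score 67.79) and chr11:5041531-5041806 (score 50.47). The remaining peak, chr11:4957976-4958321 (score 64.47), lay in the lower flank. No ES49 H3K27ac peak of the window overlapped H3K27me3, which 0.890% of the ES49 H3K27ac list did. The H3K27ac peak at the upper end of the Ewsr1 span and the nearest H3K27me3 peak were 29.6 kb apart in ES49.

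The 50 kb limit cut through runs of H3K27me3 at Ewsr1 and just missed a peak at Erg. At Ewsr1 the last peak inside had a score of 73.15, and the first outside, 141 bp beyond, had a score of 218.4. Joined as at Erg, this run went on past the window to 5053249. It made a domain of 22.8 kb with 11 peaks and 6.38 kb covered. Its rank of 586 of 4750 was close to the 594 of the Erg domain, so at this joining distance domain size did not set Erg apart from the Ewsr1 flank. That depends on the distance: joined at less than 5 kb, the largest domain covered 6.29 kb at Erg and 3.22 kb at Ewsr1. At Erg the first outside, 104 bp beyond the upper limit, had a score of 77.94.

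**Figure D3:**
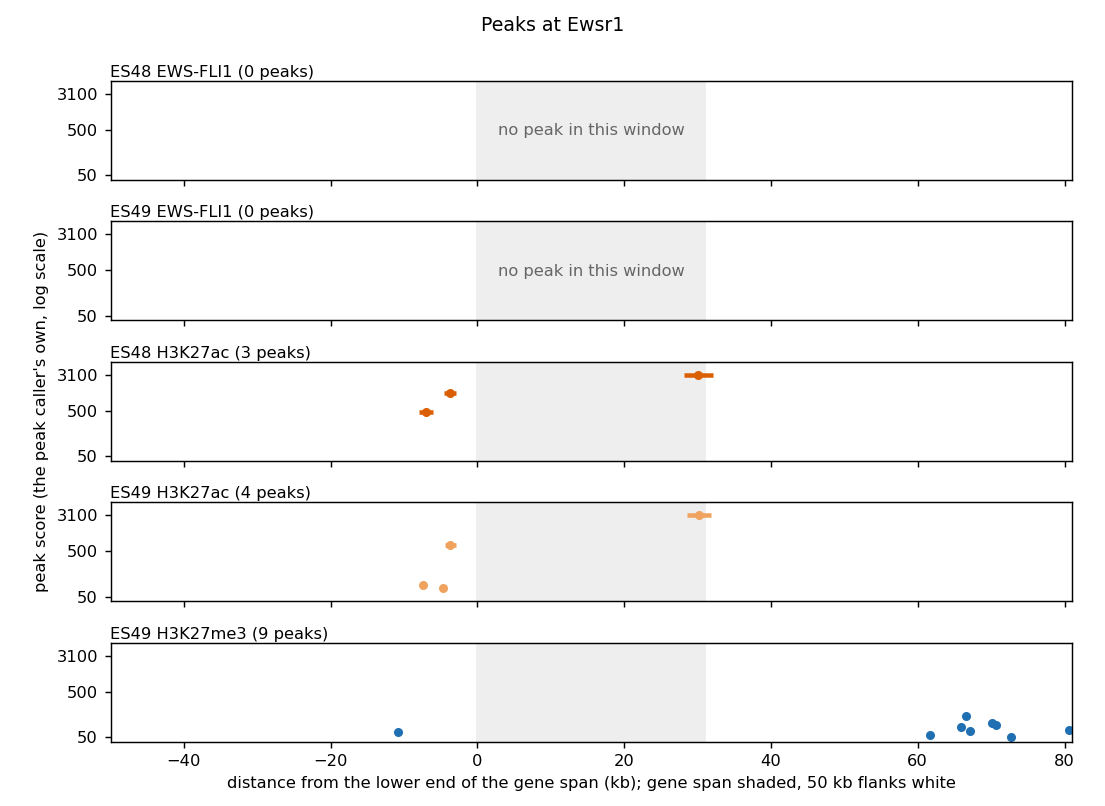
Peaks of the 5 lists at Ewsr1, drawn against the distance in kb from the lower end of the shaded span, with the caller's score on a log scale. H3K27ac of both lines crosses the upper end of the span at a score of 3100, and all 9 ES49 H3K27me3 peaks lie outside the span.

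Each window was set beside all windows of its length placed end to end over the chromosomes. H3K27me3 covered 4.03% of the 437 kb Fli1 and Ets1 window, and 3.98% of 5879 such windows were covered more. The Erg window of 329 kb was covered by 2.79%, with 5.90% of 7814 windows covered more. The Ewsr1 window of 131 kb, all in its flanks, was covered by 3.19%, with 5.22% of 19637 windows covered more. The genome mean was close to 0.642% at each length. All 3 windows were thus among those more covered by H3K27me3 peaks in ES49, including that of Ewsr1. Covered length takes no account of score. The median score was 65.36 at Fli1 and Ets1, 88.72 at Erg and 73.15 at Ewsr1, against 89.98 for the H3K27me3 list. The windows differed more in their highest scores, which were 3100, 832.4 and 147.8 in the same order. Of windows of the Ewsr1 length, 83.6% held no H3K27me3 peak.

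H3K27ac was ordered differently, with Ewsr1 first and Erg last or level with the Fli1 and Ets1 window. In ES48 it covered 5.76% of the Ewsr1 window (10.1% of windows were covered more), 1.07% of the Fli1 and Ets1 window (39.9% covered more) and 0% of the Erg window. In ES49 it covered 4.42% of the Ewsr1 window (9.30% covered more) and 0% of the others. A window without H3K27ac was common: 41.3% of windows as long as the Fli1 and Ets1 window had none in ES49. For the length of the Erg window the shares were 43.0% in ES48 and 46.6% in ES49. H3K27me3, which both windows held, was missing from 66.5% and 70.9% of windows of these lengths.

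**Figure D4:**
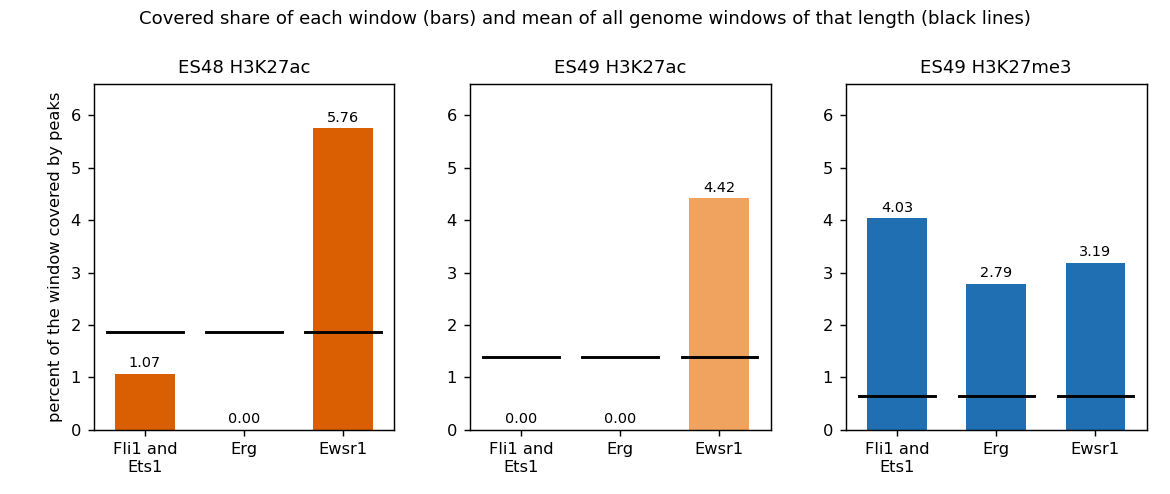
Percent of each window covered by peaks (bars) for each histone list, 1 library each, with the mean over all genome windows of that length as a black line. H3K27me3 lies above the line at all 3 loci, and H3K27ac at Ewsr1 alone.

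**Figure D5:**
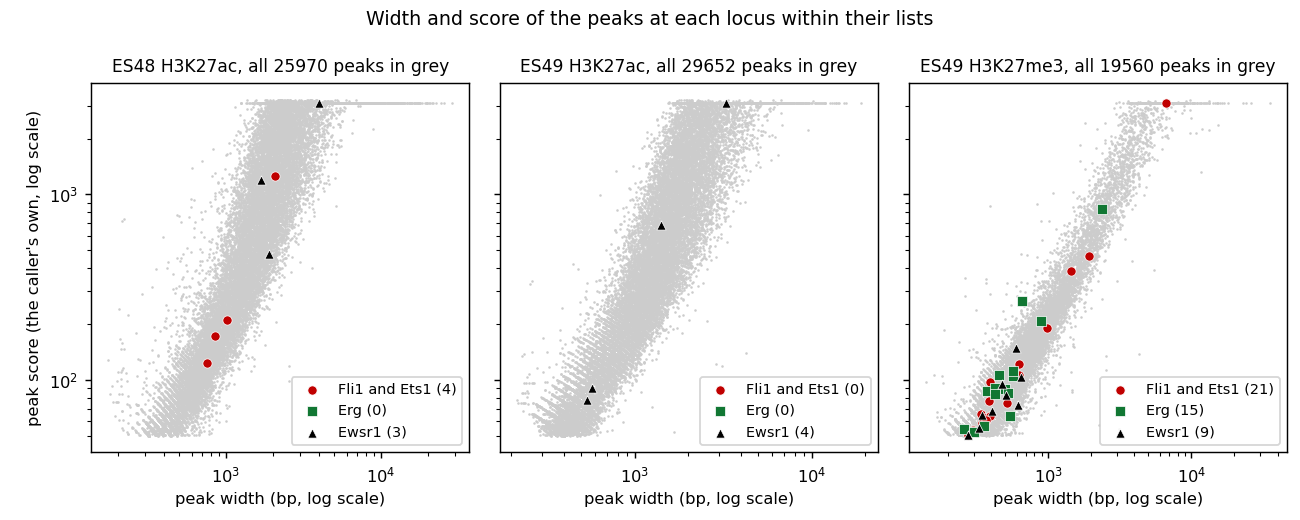
Width (bp) and score of every peak of 3 lists in grey, on log axes, with the peaks at Fli1 and Ets1, Erg and Ewsr1 marked. A single H3K27me3 peak, at Fli1, and the Ewsr1 H3K27ac peak of each line reach the plateau of 3100.

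EWS-FLI1 was far from all 4 genes. The nearest ES48 peak to the Fli1 and Ets1 span was 2547 kb above it, at chr9:35112792-35113183 (score 106.6), and the nearest in ES49 was 16381 kb above. For Erg the nearest lay 1190 kb below in ES48 and 26954 kb below in ES49, and the lists held no EWS-FLI1 peak above it on chromosome 16. For Ewsr1 the distances were 1022 kb in ES48 and 1915 kb in ES49. Windows of these lengths seldom hold an EWS-FLI1 peak: for the longest, 94.2% had none in ES48 and 96.3% none in ES49. In lacking EWS-FLI1 these genes were like most of the genome in these lists.

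ES48 has no H3K27me3 list, so whether Fli1 and Erg, which lacked H3K27ac there too, are methylated in ES48 was not analysed here. Peaks are calls above a threshold, and a place with no peak may still carry the mark below it.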

How the data were processed

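ChIP-seq peak lists of 5 samples were used, 1 library per group; the ES49 input was not analysed here. Per the submitters' processing notes, the authors used Bowtie 1.1.1, SAMtools 1.2 and the build mm9. Peaks carry names that begin with MACS, and the caller's version, settings and control were not given in the sources used here. The authors deposited 1 score per peak, with position; the scale of the score is not stated, so scores were compared within a list. Starts were made 1-based. A peak belongs to a locus if it meets the span or its 50 kb flanks. Shared peaks overlap by at least 1 bp. H3K27ac and, added later, H3K27me3 peaks were joined across gaps under 12500 bp, and the domains were ranked by covered length. Genome windows run from the first to the last peak of any list. Shares of peaks at a locus carry 95% Clopper-Pearson intervals, which treat neighbouring peaks as independent.

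Members and lists were chosen with earlier results of these data known. Named peaks are every EWS-FLI1 peak; every H3K27me3 peak of a locus with at most 10, otherwise the 5 highest-scoring and 5 widest; and the H3K27ac peaks by score, width and absence from the other line, which takes in all of them here. Further peaks were named as the ends of stretches or flanks. Overlap and coverage were tested on simulated data. Alternatives were no flank, 100 kb flanks, the upper 50% of each list by score, other overlap rules and other joining or ranking. The gene table is of GRCm38, so it gave only neighbours and promoters. Software was matplotlib 3.10.9, scipy 1.17.1, pandas 2.3.3 and numpy 2.4.6 under Python 3.11.15.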

Additional observations from a re-analysis of the deposited data

How the results depend on the processing

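No paired analysis was possible because each group has 1 sample. Without flanks the counts at Ewsr1 fell to 1 H3K27ac peak in each line and 0 H3K27me3 peaks, with 2.89 kb covered by ES48 H3K27ac, 2.46 kb by ES49 H3K27ac and 0 kb by H3K27me3; H3K27me3 covered 15.3 kb at Fli1 and Ets1 and 8.0 kb at Erg. With 100 kb flanks Erg had 26 H3K27me3 peaks. When the lower-scoring 50% of every list was left out, 1 ES48 H3K27ac peak was left at Ets1 (2.06 kb covered), and H3K27me3 had 7 peaks at Fli1 and Ets1 (12.7 kb), 7 at Erg (5.91 kb) and 3 at Ewsr1 (1.71 kb). At Ewsr1 ES48 H3K27ac then covered 5.65 kb, and ES49 H3K27ac had 2 peaks (4.67 kb), 2 of them shared. Ranked by summed score, the Ets1 domain of ES48 was 6900 and the Ewsr1 domain of ES49 was 1484, in place of 3566 and 2565. Joined at less than 5 kb, the largest H3K27me3 domain at Ewsr1 covered 3.22 kb in place of 6.38 kb, while that at Erg stayed at 6.29 kb. Under these alternatives, the Erg window had 0 H3K27ac peaks in both lines, the Fli1 and Ets1 window had 0 in ES49, and EWS-FLI1 had 0 peaks at the 3 loci. With an overlap of 50% of the shorter peak, 3 of the 4 ES49 H3K27ac peaks at Ewsr1 were shared, and the counts of ES48 were as before. With peaks within 1 kb, the 3 counts of shared peaks did not change. Without the lower-scoring 50%, the H3K27me3 peak nearest to the ES48 acetylation at Ets1 was 16.9 kb away in place of 4.97 kb.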

Other observations

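Within 100 kb of the Erg span ES49 had 26 H3K27me3 peaks, against 15 within 50 kb, counted over both sides. The first H3K27ac peak above Erg was at nearly the same place in the lines, chr16:95923098-95925111 in ES48, 2014 bp wide with a score of 3100, and chr16:95923381-95924645 in ES49, 1265 bp wide with a score of 286.4. It lay 114.1 kb above the Erg span in ES48. The next protein-coding gene above Erg in the RefSeq order is Ets2, another gene of the ETS family, and whether these peaks lie at Ets2 was not determined.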
